A study of Mus musculus with 6 samples.

Results

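The genes described here are 48 regulators of the mammalian cell cycle, namely the cyclins, the cyclin-dependent kinases (CDKs), their inhibitors and phosphatases, the E2F and DP transcription factors, the pocket proteins, the MuvB and MYB partners and the ubiquitin regulators. They were taken by gene symbol from a list of such regulators, and all 48 were found among the 24499 genes of the deposited gene table. By their best known role, 28 were placed at the G1/S transition and 20 at G2/M. All 48 passed the filter on low counts that left 13296 genes for testing.

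RNA-seq was performed on induced germinal center B cells (iGCBs), which are splenic naïve B cells grown with 1 ng/ml IL-4 on irradiated 40LB feeders. The 40LB line is a mouse fibroblast line that makes the B cell stimuli BAFF and CD40L. Cells carrying YFP were sorted on day 3. Per the labels, 3 libraries came from Eif3e knockout cells and 3 from control cells, and the design text of the series gives individual mice as their source. The study gives its cKO mice as Eif3e fl/fl Cγ1Cre Rosa26-YFP LSL. For other experiments it gives controls as Cγ1Cre Rosa26-YFP LSL, while the labels of the libraries used here say only control. YFP+ cells were sorted in both groups, which needs Cre and the reporter. Cγ1Cre is switched on when activated B cells transcribe the γ1 constant region, and YFP marks cells in which Cre has acted. The age and sex of the mice were not given in the sources used here. Eif3e encodes a subunit of the translation initiation factor eIF3.

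The cell cycle is driven by CDKs, each active only with a cyclin partner. Cyclin D with CDK4 or CDK6 and then cyclin E with CDK2 phosphorylate the pocket proteins RB1, RBL1 and RBL2, which releases E2F factors and turns on the genes of DNA replication. Cyclin A2, the B cyclins and CDK1 carry the cell through G2 into mitosis. In resting cells RBL1 or RBL2, E2F4, DP1 and the MuvB core form the DREAM complex, which represses cell cycle genes. In cycling cells the same MuvB core binds B-MYB (Mybl2) and then FOXM1 and activates the late genes of G2/M. Germinal center B cells are among the fastest dividing mammalian cells.

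In day 3 cKO iGCBs, transcripts of the G2/M regulators were lower as a group, while those of G1/S regulators were spread on both sides of the control level. Of the 20 G2/M members, 14 fell, 3 rose and 3 did not pass the test, with a median log2 fold change of -0.40 in cKO over control. Of the 28 G1/S members, 8 rose, 7 fell and 13 did not pass, with a median of 0.02. Without cKO 2 or without control 2, 5 G1/S members rose, and without cKO 1 the G1/S median was -0.01. Cdc25b, the phosphatase that starts the activation of CDK1, fell by 2.97-fold, and Ccnb2, a cyclin partner of CDK1, fell by 2.23-fold. Mybl2, the MYB factor that joins MuvB in S phase, rose by 2.42-fold, against the direction of most G2/M members, and Cdk6 rose by 2.08-fold.

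These calls rested on edgeR's quasi-likelihood test over all 13296 genes with Benjamini-Hochberg adjustment, where a gene was called at an adjusted p under 0.05. Transcriptome differences were wide, and 24.1% of all genes tested were called higher in cKO and 24.5% lower. The 25.0% of G1/S members called lower and 28.6% called higher were therefore near the background. Among G2/M members 70.0% were called lower and 15% higher. With the added demand of a change over 1.5-fold, 10.4% of all genes were higher and 10.6% lower. That rule kept 4 members that rose (Mybl2, Cdk6, Cdc25a and Ccnd2) and 8 that fell (Cdc25b, Cdkn3, Ccnb2, E2f2, Ube2c, Ccnb1, Cdc25c and Cdk1). The libraries of the groups did not overlap for 38 of the 48 members, or 79.2%, compared with 58.7% of all genes tested. Over all genes tested the median log2 fold change was -0.00402. In sorted bulk cells, fewer cells in a phase and less RNA of a gene per cell cannot be told apart. Of the 12 members past the 1.5-fold rule, Ccnd2, Cdk6, Cdc25b, Cdc25c and Ube2c share exonic bases with another annotated gene. The strand setting of the counting was not given, so reads of such pairs cannot be told apart, and the partners of Ccnd2, Cdc25b and Ube2c in the gene table averaged at most 6.52 CPM.

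**Figure D1:**
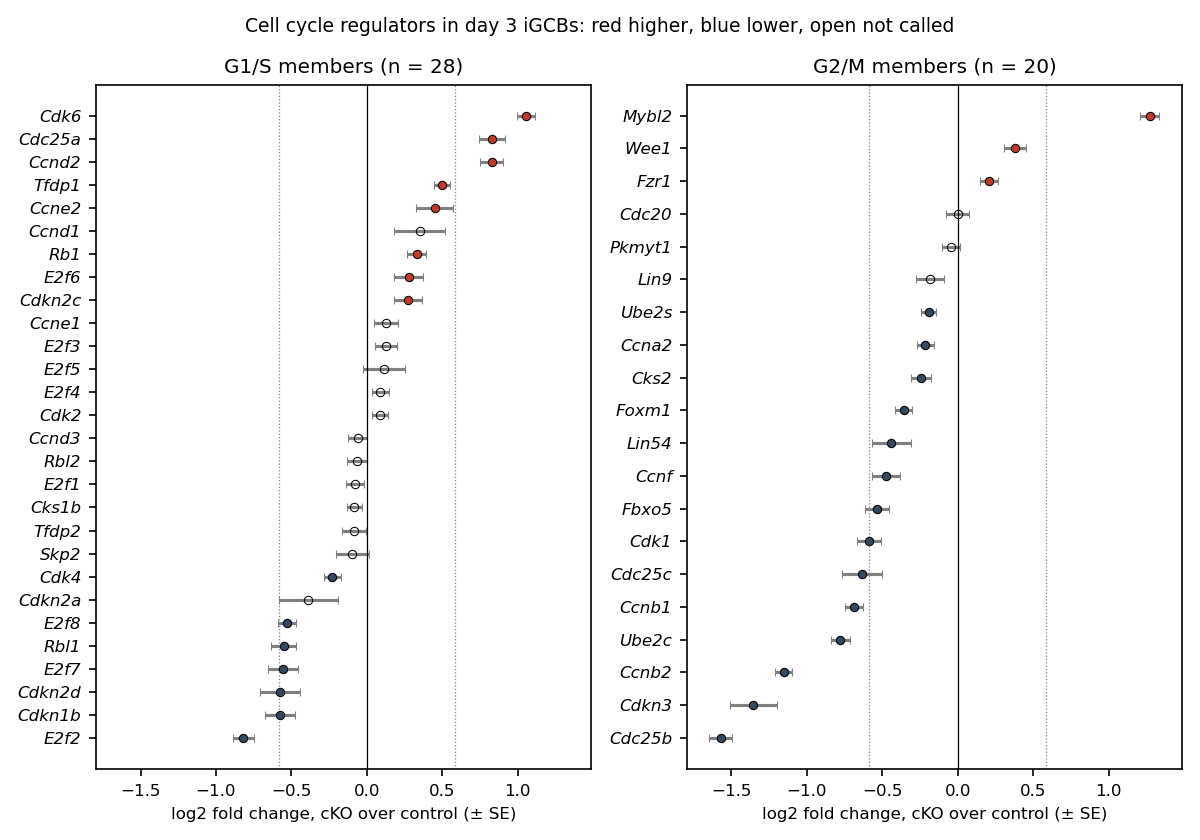
Log2 fold change of cKO over control with its SE for the 28 G1/S members (left) and the 20 G2/M members (right), each from 3 libraries per group. Filled red points were called higher, filled blue points lower and open points not called, and dotted lines mark 1.5-fold. Most G2/M points lie left of 0 and Mybl2 lies far to the right, while G1/S points lie on both sides.

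Library totals were 39079582 to 45504570 estimated counts, and the smallest member level in any library, 3.47 counts per 1000000 (CPM) for Cdkn2a in cKO 2, was far above the 0.0659 to 0.0768 CPM that 3 counts were worth. Eif3e itself had 173, 149.8 and 152 CPM in cKO 1, 2 and 3 and 424, 401 and 392.4 CPM in control 1, 2 and 3. All cKO libraries were thus below all controls, with a log2 fold change of -1.36 ± 0.07 (SE, n = 3 and 3) and an adjusted p of 6.71e-07 by edgeR's quasi-likelihood test, although counts per gene do not tell the floxed exons from the others. Genes that mark B cells (Cd79a, Cd79b, Ms4a1, Pax5 and Cd22) summed to 3100 to 3370 CPM in cKO and 3440 to 3680 CPM in control, with 2 of the 5 called higher and 3 lower. The germinal center markers Fas, Bcl6, Gcsam and S1pr2 summed to 185 to 203 CPM in cKO and 211 to 249 CPM in control, and the plasma cell markers Sdc1, Jchain, Prdm1, Xbp1 and Irf4 to 652 to 780 CPM and 826 to 852 CPM. Within these lists single genes moved apart. Among germinal center markers, Gcsam and Bcl6 fell with log2 fold changes of -2.75 and -0.32, Fas rose with 0.41 and S1pr2 was not called. Among plasma cell markers, Jchain, Prdm1 and Xbp1 fell with -4.00, -1.13 and -1.10, and Sdc1 and Irf4 rose with 1.60 and 0.42. The 6 T cell markers summed to at most 0.486 CPM in any library, and Cd3e was at 0 in all. The 15 fibroblast markers summed to 108 to 124 CPM in cKO and 75.2 to 137 CPM in control, with Lum and Postn at 0 in every library, and 2 of the 11 tested were called higher and 1 lower. The 6 myeloid markers summed to 4.32 to 6.31 CPM in cKO and 1.66 to 2.56 CPM in control, with Adgre1 at 3.65 to 5.59 CPM and 0.618 to 2.00 CPM of these sums and Cd14 at 0 in every library. The part of B cell, germinal center, plasma, fibroblast and myeloid markers in the results below was not tested.

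Xist, the transcript made from the inactive X chromosome in females, was abundant in cKO 2, control 1 and control 2 and was at or below 16 counts in the other 3 libraries. The median log2 fold change of G2/M members was -0.40 with Xist and -0.26 without, and that of G1/S members was -0.00155 and 0.02. The second contrast rests on 2 cKO libraries and 1 control, and the first on 1 cKO library and 2 controls.

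E2F and MuvB complexes act through short promoter elements, and promoter sequences are shown for 9 members because letters of these elements were found more in some groups of members than in others. Windows of members that were not called are not printed. RefSeq windows of 300 bases on GRCm38.p6, from 250 before to 50 after each gene start, were at hand for 36 of the 48 members. The members with no entry were Foxm1, Ccnd1, Ccnd2, Rb1, E2f5, Cdc25c, E2f4, Ccne2, Wee1, Lin9, Pkmyt1 and Ccna2. Both strands were searched for the cell cycle genes homology region (CHR, the element bound by LIN54 of MuvB) as TTTGAA or TTCGAA, for E2F sites as TTTCCCGC, TTTCGCGC, TTTGCCGC or TTTGGCGC, for CCAAT boxes, and for the CHR variant TTTAAA. The 150 bases printed run 5′ to 3′ on the gene's strand from 100 before to 50 after the start, with CHR, TTTAAA and E2F letters in capitals. The first 5 belong to G2/M members that fell, Ccnb2 at chr9:70421505-70421654 (minus strand), Cdc25b at chr2:131186848-131186997 (plus strand), Ube2c at chr2:164769829-164769978 (plus strand), Cdk1 at chr10:69352863-69353012 (minus strand) and Ccnb1 at chr13:100786437-100786586 (minus strand). E2f8, a G1/S member that fell, is at chr7:48881547-48881696 (minus strand). The members that rose are Cdc25a at chr9:109875479-109875628 (plus strand), Tfdp1 at chr8:13338651-13338800 (plus strand) and Mybl2 at chr2:163054535-163054684 (plus strand).
Ccnb2: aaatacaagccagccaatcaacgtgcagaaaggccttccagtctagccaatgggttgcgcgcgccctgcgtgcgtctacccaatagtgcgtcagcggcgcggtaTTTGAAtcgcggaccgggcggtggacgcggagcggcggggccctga
Cdc25b: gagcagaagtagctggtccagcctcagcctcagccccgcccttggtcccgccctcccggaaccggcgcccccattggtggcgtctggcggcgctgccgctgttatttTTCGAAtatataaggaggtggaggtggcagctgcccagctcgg
Ube2c: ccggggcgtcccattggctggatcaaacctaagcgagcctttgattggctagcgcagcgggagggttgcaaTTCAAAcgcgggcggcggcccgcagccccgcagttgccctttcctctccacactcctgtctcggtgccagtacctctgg
Cdk1: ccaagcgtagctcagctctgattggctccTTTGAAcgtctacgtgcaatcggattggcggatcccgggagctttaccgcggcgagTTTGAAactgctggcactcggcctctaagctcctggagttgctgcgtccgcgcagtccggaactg
Ccnb1: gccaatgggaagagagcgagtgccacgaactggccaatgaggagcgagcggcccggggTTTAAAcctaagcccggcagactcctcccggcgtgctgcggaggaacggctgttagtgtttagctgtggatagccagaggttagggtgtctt
E2f8: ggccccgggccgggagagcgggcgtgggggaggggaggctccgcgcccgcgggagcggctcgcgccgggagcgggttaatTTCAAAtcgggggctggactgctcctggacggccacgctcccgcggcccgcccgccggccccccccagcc
Cdc25a: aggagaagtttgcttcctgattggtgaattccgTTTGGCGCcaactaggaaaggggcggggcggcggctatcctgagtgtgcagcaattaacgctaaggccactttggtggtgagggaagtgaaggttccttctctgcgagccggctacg
Tfdp1: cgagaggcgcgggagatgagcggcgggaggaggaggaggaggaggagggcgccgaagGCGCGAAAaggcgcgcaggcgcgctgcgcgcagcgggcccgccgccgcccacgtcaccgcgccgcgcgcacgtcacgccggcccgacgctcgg
Mybl2: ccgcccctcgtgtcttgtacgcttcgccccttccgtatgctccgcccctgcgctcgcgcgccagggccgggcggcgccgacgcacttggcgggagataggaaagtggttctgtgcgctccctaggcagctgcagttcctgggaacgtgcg

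The CHR letters stood in 10 of the 14 G2/M members with a window (71.4%) and in 6 of the 22 G1/S members (27.3%). They stood in 19.2% of all 32851 promoter windows and in 16.4% of the 10100 tested genes with a window. By direction, 11 of the 18 members that fell held them, compared with 0 of the 7 that rose and 5 of the 11 that were not called. Direction and phase overlap in this split, since 9 of those 11 were G2/M members. Of the 7 that rose, Mybl2 and Fzr1 were G2/M members and the rest G1/S members. Among members that fell, CHR letters stood in 9 of 11 at G2/M (81.8%) and in 2 of 7 at G1/S (28.6%), the latter near the 27.3% of all G1/S members. Those that fell and held CHR letters were Cdc25b, Cdkn3, Ccnb2, E2f2, Ube2c, Cdk1, Fbxo5, E2f8, Ccnf, Lin54 and Ube2s. In Ccnb2 the motif closest to the start began 4 bases after it, in Cdc25b 7 bases after it, in Fbxo5 3 bases after it, in Ccnf 14 bases before it, in Cdk1 15 bases before it and in E2f8 20 bases before it. It began 29 bases before the start in Ube2c, 29 bases after it in Lin54, 31 bases before it in E2f2, 111 bases before it in Cdkn3 and 162 bases before it in Ube2s. Of the members that were not called, Cdc20 held CHR letters 18 bases before its start. In Cks1b, E2f3, Skp2 and Rbl2, also not called, those closest to the start began 17, 23, 55 and 201 bases before it. The G2/M members that fell without CHR letters were Ccnb1 and Cks2, and both held CCAAT boxes. Ccnb1 also had the TTTAAA letters. These stood in 2 of 14 G2/M members (14.3%) and 5 of 22 G1/S members (22.7%). They stood in 10.8% of the tested genes with a window and in 13.2% of all windows. CCAAT boxes were found in 12 of 14 G2/M members (85.7%) and 13 of 22 G1/S members (59.1%), in 43.0% of the tested genes with a window and in 37.4% of all windows. CHR and CCAAT letters stood together in 9 of 14 G2/M members (64.3%), in 5 of 22 G1/S members (22.7%), in 6.89% of the tested genes with a window and in 7.52% of all windows.

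The E2F letters had the opposite distribution between the phases. They were held by 8 of 22 G1/S members (36.4%) and by Cdk1 alone of the 14 G2/M members, against 4.72% of the tested genes with a window and 2.26% of all windows. Among members that rose, Cdc25a and Tfdp1 held them, and among members that fell, E2f2, E2f7, Rbl1 and Cdk1 did. E2f3, Cdk2 and Cdkn2a held them and were not called. E2F sites spelled otherwise were not searched for. A window without these letters, such as that of Mybl2, may thus hold an E2F site that was not counted. A match of letters is a description of the window and not a measured binding site, and several members have more than 1 window because RefSeq gives them more than 1 start.

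**Figure D2:**
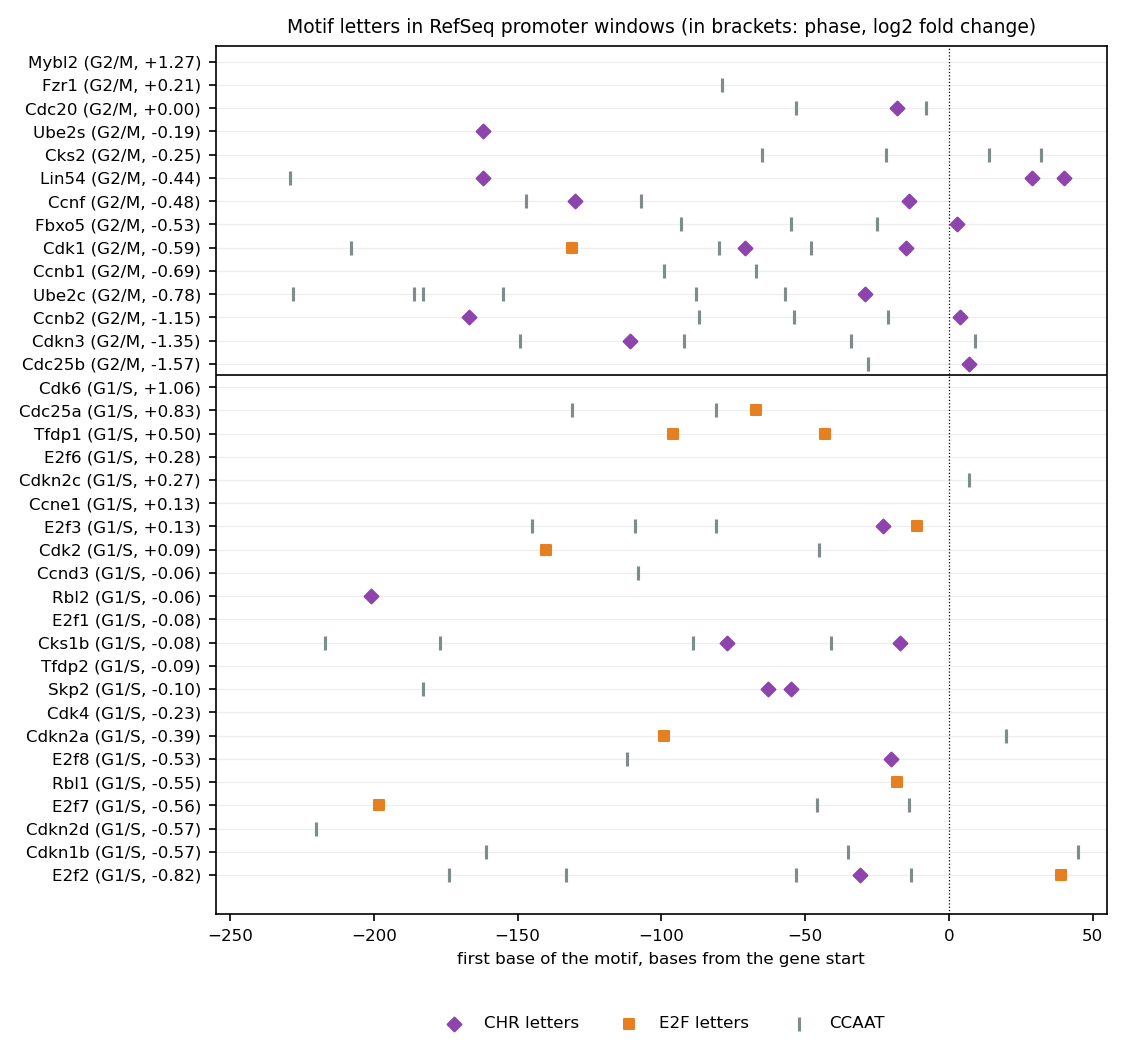
Distance in bases of CHR, E2F and CCAAT letters from the gene start (dotted line) for the 36 members with a RefSeq window, G2/M above the horizontal line and G1/S below it, each ordered by log2 fold change. Where a gene has several windows all are drawn on its row. CHR letters lie near the start of most G2/M members that fell and are missing from the rows of the 7 members that rose, of which 5 are G1/S members.

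Among the cyclins, the mitotic ones fell and the D and E cyclins rose or did not pass the test. Ccnb2 encodes cyclin B2 (chr9:70407692-70421547 in GENCODE M21 on GRCm38, as for the positions that follow) and had 56.8, 57.1 and 57.7 CPM in cKO 1, 2 and 3 and 131, 130.2 and 120.2 CPM in control 1, 2 and 3. Even the lowest control, control 3, was more than 2 times the highest cKO library. Its log2 fold change was -1.15 ± 0.06 (SE, n = 3 and 3), with an adjusted p of 6.57e-07 by edgeR's quasi-likelihood test. Ccnb1, which encodes cyclin B1 (chr13:100778650-100786570), had 81.2, 77.1 and 75.0 CPM in the cKO libraries and 133, 120.1 and 122 CPM in the control libraries. The groups did not overlap, and by the same edgeR test its log2 fold change was -0.69 ± 0.06 (SE, n = 3 and 3) with an adjusted p of 1.22e-05. Ccna2, the cyclin of S phase and G2, and Ccnf, a cyclin that serves as a ubiquitin ligase adaptor, fell by smaller amounts, with log2 fold changes of -0.21 and -0.48. Ccna2 shares 510 exonic bases with Exosc9 on the other strand, which averaged 42.8 CPM in control and 48.3 CPM in cKO.

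In the other direction, Ccnd2 (chr6:127125162-127152193), the D cyclin induced by B cell activation, had 112, 104 and 117 CPM in control 1, 2 and 3 and 214, 197 and 179.8 CPM in cKO 1, 2 and 3. The lowest cKO library, cKO 3, stood above the highest control, and the log2 fold change was 0.83 ± 0.07 (SE, n = 3 and 3), at an adjusted p of 1.3e-05 by edgeR's quasi-likelihood test. Ccne2, a partner of CDK2, rose with a log2 fold change of 0.45, a call that was lost without cKO 2 or without control 2, where the log2 fold change was 0.36 and 0.35. It shares 609 exonic bases with Ints8 on the other strand, which averaged 61.4 CPM in control and 88.1 CPM in cKO, above Ccne2 itself. Ccnd3, Ccne1 and Ccnd1 did not pass, with log2 fold changes of -0.06, 0.13 and 0.35. Ccnd1 was called higher in fits with a replicate block or with the Xist level as a covariate, at 0.363 and 0.491. Ccnd1 had 13.8, 13.6 and 10.7 CPM in cKO and 11.5, 10.8 and 7.60 CPM in control. Fibroblasts express it too, and its lowest value was in control 3, the library in which the fibroblast markers summed to the least, 75.2 CPM. In control 1 and 2 the sums were 137 and 134 CPM, and in cKO 1, 2 and 3 they were 119, 124 and 108 CPM. Ccnd1 was nevertheless higher in cKO 1 and 2 than in control 1 and 2. Whether the feeders contributed to Ccnd1 was not tested.

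On a per-length scale (mean CPM per kilobase of exon), the order of the cyclins differed between the groups. In control, cyclin B2 had the highest level, 83.1, followed by 71.7 for Ccnd3, 57.3 for Ccna2, 50.2 for Ccnb1, 16.5 for Ccnd2, 14.9 for Ccne1, 10.9 for Ccnf, 4.35 for Ccne2 and 2.66 for Ccnd1. In cKO the order began with Ccnd3 at 68.8, Ccna2 at 49.4 and Ccnb2 at 37.3. Ccnb1 and Ccnd2, which were far apart in control, had 31.2 and 29.3 in cKO. These levels divide gene counts by the summed exon length of the gene model and do not follow which transcript was made.

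Among the kinases and their CKS partners, CDK6 and CDK1 changed most. Cdk6 (chr5:3341485-3531008), a partner of the D cyclins, had 79.1, 82.9 and 78.2 CPM in the control libraries and 166, 177 and 157 CPM in the cKO libraries. Each cKO library was more than 1.5 times every control, and the log2 fold change was 1.06 ± 0.06 (SE, n = 3 and 3), at an adjusted p of 1.47e-06 by edgeR's quasi-likelihood test. Cdk4, the other D cyclin kinase, moved the other way, from 271 ± 7.06 CPM in control (SD, n = 3) to 232 ± 15.6 CPM in cKO, a log2 fold change of -0.23. Its exons share 641 bases with those of Tspan31 on the other strand, which averaged 54.96 CPM in control and 75.8 CPM in cKO, and without a stated strand setting in the counting their reads cannot be told apart. Per kilobase of exon, Cdk4 remained above Cdk6 in both groups, at 132 and 6.95 in control and 113 and 14.5 in cKO.

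Cdk1 (chr10:69335146-69352938), the mitotic kinase, had 63.8, 62.6 and 64.5 CPM in cKO 1, 2 and 3 and 107, 95.7 and 84.5 CPM in control 1, 2 and 3. The cKO libraries lay close together and below the lowest control, which was control 3. With a log2 fold change of -0.59 ± 0.08 (SE, n = 3 and 3) and an adjusted p of 0.000174 by edgeR's quasi-likelihood test, it was the member nearest to the 1.5-fold limit on the inside. Just outside it were Cdkn1b at -0.57, Cdkn2d at -0.57, E2f7 at -0.56 and Rbl1 at -0.55. Cdk1 itself fell outside the limit with DESeq2 (-0.578), RLE size factors (-0.58), total counts only (-0.584) and at least 10 counts in every library (-0.581). It also did so with a replicate block (-0.581), with the Xist level as a covariate (-0.54), without cKO 2 (-0.575) and without control 1 (-0.5). Cdk2, the cyclin E and cyclin A kinase, was not called, at 135 ± 5.32 CPM in control (SD, n = 3) and 144 ± 4.47 CPM in cKO. Of the small CDK-binding proteins, Cks2 fell with a log2 fold change of -0.25, a call lost without cKO 2 or without control 1, and Cks1b, a cofactor of SKP2, was not called at -0.08.

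**Figure D3:**
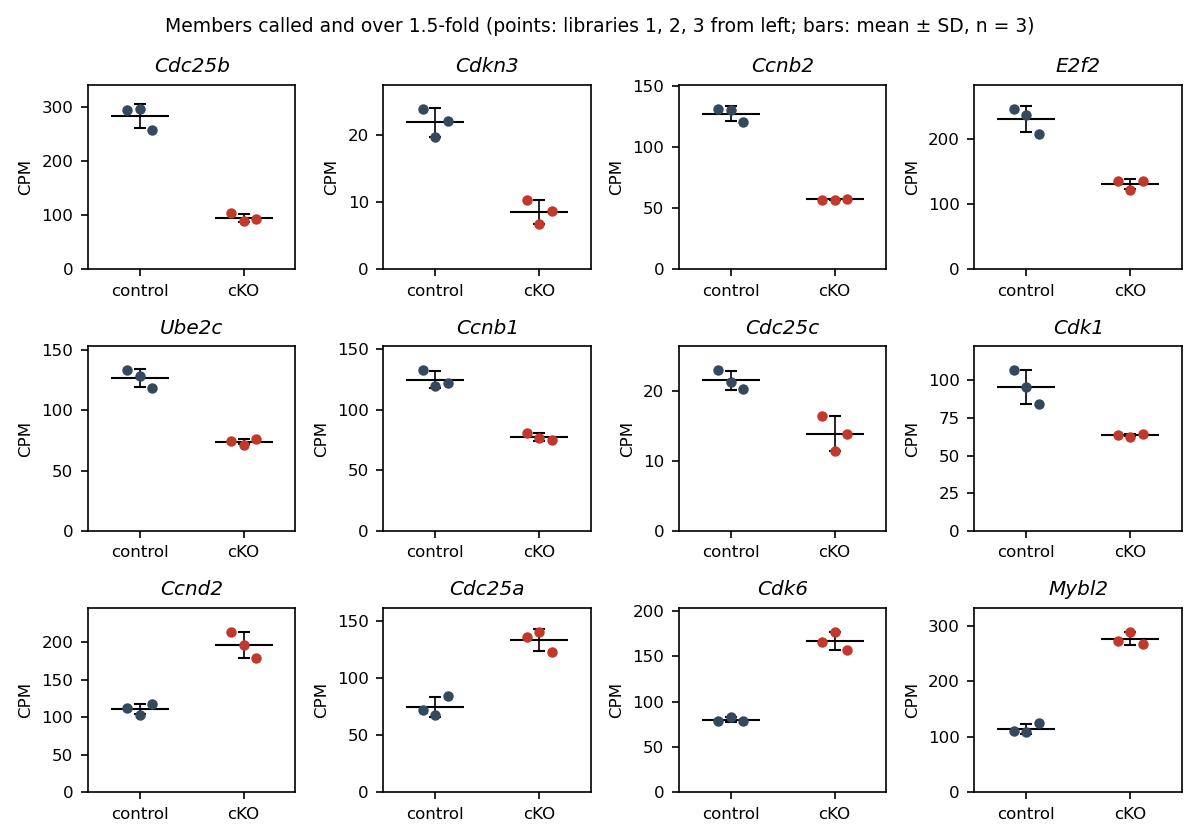
CPM of the 12 members called and over 1.5-fold, with each library as a point (1, 2 and 3 from left), and the mean ± SD of 3 libraries as bars. Axes start at 0. For each of the 8 members that fell, all 3 cKO libraries lie below all 3 controls, and for the 4 that rose all 3 lie above.

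Of the 5 CDK inhibitors, 3 fell, 1 rose and 1 was not called, or 60% lower and 20% higher beside 24.5% and 24.1% of all genes tested. Cdkn3 (chr14:46760541-46771669), a phosphatase that acts on CDKs, had 10.4, 6.71 and 8.70 CPM in cKO 1, 2 and 3 and 24.0, 19.7 and 22.2 CPM in control 1, 2 and 3. No cKO library reached the lowest control, and the log2 fold change was -1.35 ± 0.16 (SE, n = 3 and 3), at an adjusted p of 6.68e-05 by edgeR's quasi-likelihood test. Cdkn1b encodes p27, which binds cyclin E with CDK2, and had 52.6, 46.5 and 59.9 CPM in cKO and 74.7, 87.5 and 74.7 CPM in control, without overlap, for a log2 fold change of -0.57. The INK4 inhibitors p19 and p18 of CDK4 and CDK6 moved in opposite directions. Cdkn2d, the gene of p19, fell with a log2 fold change of -0.57, and Cdkn2c, the gene of p18, rose with 0.27. The Cdkn2c call was lost without cKO 2, without cKO 3, without control 2 and without control 3. Cdkn2a, which encodes p16 and p19ARF, averaged 5.47 ± 0.66 CPM in control and 4.18 ± 0.83 CPM in cKO (SD, n = 3) and was not called. Because the gene table sums both of its products, they are not separated here.

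Of the enzymes that set the inhibitory phosphorylation of CDKs, the 3 CDC25 phosphatases, which remove it, split by phase. Cdc25b (chr2:131186949-131198497) changed by more than any other member, with 104, 89.1 and 92.2 CPM in cKO 1, 2 and 3 and 293, 296 and 258 CPM in control 1, 2 and 3. The groups were more than 2 times apart at their closest libraries. The log2 fold change was -1.57 ± 0.08 (SE, n = 3 and 3), and the adjusted p was 6.57e-07 by edgeR's quasi-likelihood test. Cdc25c, which acts at entry into mitosis, had 16.4, 11.4 and 13.8 CPM in cKO and 23.0, 21.4 and 20.3 CPM in control. The groups did not overlap, although cKO 1 came nearer to the controls than cKO 2 and 3, and the log2 fold change was -0.63 ± 0.13 (SE, n = 3 and 3), at an adjusted p of 0.003 by edgeR's quasi-likelihood test.

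Cdc25a (chr9:109875579-109893895), the phosphatase of the G1/S transition, went up where the others went down. It had 72.4, 67.8 and 84.6 CPM in control 1, 2 and 3 and 136, 141 and 123 CPM in cKO 1, 2 and 3. No cKO library reached down to control 3, the highest control, and the log2 fold change was 0.83 ± 0.09 (SE, n = 3 and 3), at an adjusted p of 3.34e-05 by edgeR's quasi-likelihood test. Cdc25b had the highest level per kilobase of the 3 phosphatases in control, 90.0 against 15.9 for Cdc25a and 11.1 for Cdc25c, and in cKO Cdc25b and Cdc25a were close, at 30.3 and 28.3. Wee1, a kinase that adds the inhibitory phosphate, rose with a log2 fold change of 0.38, from 46.9 ± 2.86 CPM in control (SD, n = 3) to 60.9 ± 3.06 CPM in cKO. Pkmyt1, the membrane-bound kinase of the same kind, was not called at -0.04.

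The E2F factors that activate transcription in late G1 did not move as a block. E2f2 (chr4:136172394-136196057) had 135, 121 and 134 CPM in cKO 1, 2 and 3 and 246, 236 and 208 CPM in control 1, 2 and 3. All cKO libraries were below control 3, the lowest control, with a log2 fold change of -0.82 ± 0.07 (SE, n = 3 and 3) and an adjusted p of 1.22e-05 by edgeR's quasi-likelihood test. The other activators, E2f1 and E2f3, were not called, with log2 fold changes of -0.08 and 0.13. Per kilobase of exon, E2f2 was the most abundant activator in both groups, at 48.5 in control and 27.5 in cKO, and E2f1 came next at 21.7 and 20.5.

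The atypical repressors E2F7 and E2F8, which bind DNA without a DP partner, both fell. E2f8 had 102, 112 and 99.5 CPM in cKO and 155, 152 and 146 CPM in control, and E2f7 had 16.7, 18.6 and 19.6 CPM and 26.4, 29.1 and 25.6 CPM. Neither gene had a cKO library that reached the lowest control, and their log2 fold changes were -0.53 and -0.56. Of the factors linked to repression, E2f4, the E2F of the DREAM complex, and E2f5 were not called, at 0.09 and 0.11. E2f6, a repressor that does not bind pocket proteins, rose with a log2 fold change of 0.28, a call lost without any of cKO 1, cKO 2, control 2 or control 3.

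Tfdp1 encodes DP1, the main dimer partner of the E2Fs, and was the most abundant gene of this group per kilobase, at 94.9 in control and 134 in cKO. It had 241, 234 and 240.5 CPM in control 1, 2 and 3 and 318, 358 and 333 CPM in cKO 1, 2 and 3. All cKO libraries stood above all controls, and the log2 fold change was 0.50 ± 0.05 (SE, n = 3 and 3), at an adjusted p of 4.81e-05 by edgeR's quasi-likelihood test. Tfdp2, the other DP gene, was not called at -0.09.

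Mybl2 (chr2:163054687-163084688) had the largest rise of all members. It had 111, 108 and 124 CPM in control 1, 2 and 3 and 272, 289 and 268 CPM in cKO 1, 2 and 3. The lowest cKO library was more than 2 times the highest control, the log2 fold change was 1.27 ± 0.06 (SE, n = 3 and 3), and the adjusted p was 7.34e-07 by edgeR's quasi-likelihood test. Foxm1, the forkhead factor that joins B-MYB and MuvB on late promoters, went the other way, from 158 ± 9.63 CPM in control (SD, n = 3) to 123 ± 2.93 CPM in cKO, a log2 fold change of -0.36. Per kilobase of exon the levels of Mybl2 and Foxm1 were 31.3 and 34.0 in control and 75.7 and 26.5 in cKO. Lin54, the DNA-binding subunit of MuvB, fell with a log2 fold change of -0.44, but the call was lost without cKO 1, cKO 3 or control 1 and with the Xist level as a covariate. Lin9, another MuvB subunit, was not called at -0.19.

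The 3 pocket proteins differed from each other. Rb1, the retinoblastoma protein gene, rose with a log2 fold change of 0.33, from 78.0 ± 5.43 CPM in control (SD, n = 3) to 98.1 ± 2.93 CPM in cKO. Its exons share 488 and 408 bases with Rcbtb2 and Lpar6 on the other strand, which had averages of 14.3 and 3.83 CPM in control and 10.8 and 5.89 CPM in cKO. Rbl1, which encodes p107, had 46.9, 46.7 and 56.3 CPM in cKO and 76.4, 70.7 and 72.5 CPM in control, without overlap, and fell with a log2 fold change of -0.55. Rbl2, which encodes p130, the pocket protein most used by DREAM in resting cells, was not called at -0.06, with 78.3 ± 2.39 CPM in control (SD, n = 3) and 74.9 ± 6.06 CPM in cKO.

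The ubiquitin regulators act mostly through the anaphase-promoting complex (APC/C), which destroys the mitotic cyclins. Ube2c (chr2:164769898-164778822), the ubiquitin-conjugating enzyme that starts chains on its substrates, had 74.8, 71.4 and 75.9 CPM in cKO 1, 2 and 3 and 133, 129 and 119 CPM in control 1, 2 and 3. The groups were far apart, with a log2 fold change of -0.78 ± 0.06 (SE, n = 3 and 3) and an adjusted p of 5.77e-06 by edgeR's quasi-likelihood test. Its exons share 592 bases with Tnnc2 on the other strand, which averaged at most 0.126 CPM in either group. Ube2s, the enzyme that extends the chains, and Fbxo5, which encodes the APC/C inhibitor EMI1, fell with log2 fold changes of -0.19 and -0.53. Ube2s shares 183 exonic bases with Rpl28, a ribosomal protein gene with 1291 CPM in control and 1455 CPM in cKO.

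Neither coactivator of the APC/C was called lower. Cdc20, which acts in mitosis, had 144, 152 and 172 CPM in cKO 1, 2 and 3 and 157, 166 and 146 CPM in control 1, 2 and 3. These ranges overlapped, and the log2 fold change of -0.000703 had an SE of 0.07. Fzr1, which encodes CDH1, the coactivator of late mitosis and G1, rose with a log2 fold change of 0.21. Skp2, the F-box protein that targets p27, was not called at -0.10, with 12.6 ± 0.894 CPM in control (SD, n = 3) and 11.8 ± 0.671 CPM in cKO.

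The phases were also set against each other within each library, as the mean over members of log2 CPM after subtraction of each gene's mean over the 6 libraries. For G2/M members this level was -0.16, -0.22 and -0.19 in cKO 1, 2 and 3 and 0.25, 0.19 and 0.13 in control 1, 2 and 3. For G1/S members it was 0.00603, 0.01 and 0.02 in cKO and 0.02, -0.00469 and -0.06 in control. The difference of G2/M minus G1/S was -0.17, -0.23 and -0.21 in cKO and 0.23, 0.19 and 0.19 in control, so that the groups were separated for G2/M members and for the difference and overlapped for G1/S members. Control 3 had the lowest G2/M level of the controls, and without it the median log2 fold change of G2/M members was -0.46. Control 1 had the highest, and without control 1 the median was -0.31.

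**Figure D4:**
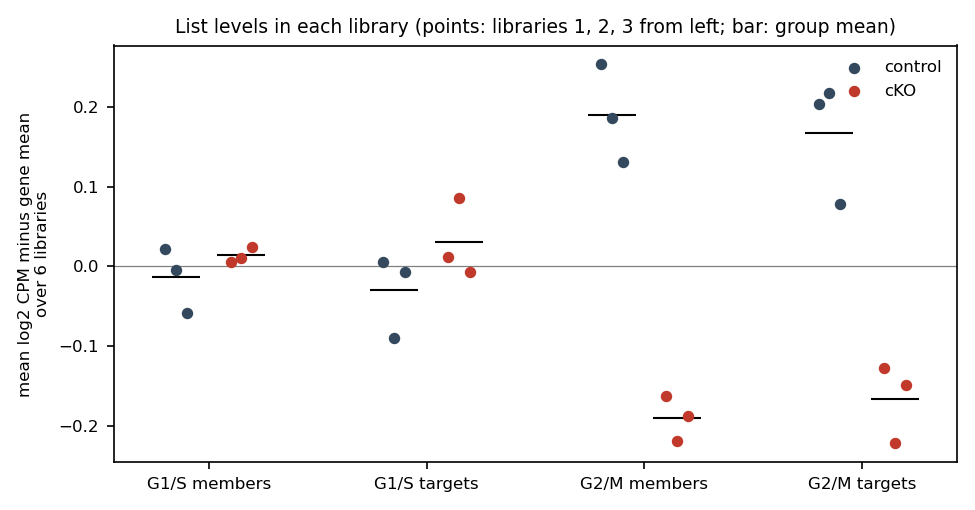
Mean centred log2 CPM of 4 gene lists in each library, with controls left (blue) and cKO right (red), libraries 1, 2 and 3 from left in each group and bars at the group means. Both G2/M lists are lower in every cKO library than in every control, and both G1/S lists overlap between the groups.

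The other genes of the pathway, which are not members, were read from lists of typical target genes and complex subunits. Of 35 G2/M target genes, which act in the spindle, the kinetochore and cytokinesis, 24 fell and 3 rose, or 68.6% and 8.57% beside 24.5% lower and 24.1% higher over all genes tested, with a median log2 fold change of -0.41. The kinetochore genes Cenpf and Cenpe had the lowest log2 fold changes among the called, -1.04 and -0.90. Plk1 and Aurkb, kinases of mitosis, fell with -0.45 and -0.60, and Mki67, the proliferation marker Ki-67, with -0.49. Gtse1 and the condensin subunit Smc4 rose, with 0.49 and 0.40. Aurka and Top2a were not called, at -0.07 and -0.08.

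Of 35 G1/S target genes, which act in replication licensing, DNA synthesis and chromatin assembly, 10 rose and 6 fell, or 28.6% and 17.1% beside 24.1% and 24.5% of all genes tested, with a median log2 fold change of 0.04. The licensing factor gene Cdt1 and the mismatch repair gene Msh6 were lowest at -0.86 and -0.70. The chromatin remodeler gene Hells and Ezh2, the histone methyltransferase of Polycomb, were highest at 0.93 and 0.63. Pcna, the sliding clamp of DNA polymerase, and Mcm2, a subunit of the replicative helicase, were not called, at -0.03 and 0.04.

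Of 19 subunits of the APC/C and of the SCF ubiquitin ligase, 8 rose and 3 fell, or 42.1% and 15.8% beside 24.1% and 24.5% of all genes tested, with a median of 0.15. Cul1, the cullin of SCF, and Anapc16 rose with log2 fold changes of 0.57 and 0.45, and Anapc2 and Anapc11, which form the catalytic part of the APC/C, fell with -0.46 and -0.27. Of 33 other cyclins, CDKs and regulators, 31 were tested, 6 rose and 8 fell, or 19.4% and 25.8%, near the shares of all genes tested, with a median of -0.04. Ccng1 and Ccng2, which encode the G cyclins, moved apart, at 1.26 and -1.29. Cdk8, a kinase of the Mediator complex, rose with 0.94 and Ccni fell with -1.11. Cdkn1a, which encodes the CDK inhibitor p21, rose with 0.53, and Lin37, a MuvB subunit, fell with -0.57.

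Use of transcripts was compared for the 14 members with at least 2 RefSeq transcripts kept. By edgeR's test of differential transcript use, 0 of the 14 were called and 0 had an unadjusted p under 0.05, with unadjusted p values from 0.372 to 0.987, while 1.37% of the 2990 genes tested were called. The estimated share of a transcript often varied widely within a group. For the Tfdp1 transcript with the largest share in every library it was 81.4%, 69.0% and 35.0% of the gene in cKO and 84.0%, 38.8% and 77.7% in control. Cdc25b was steadier, and its more abundant transcript made up 57.8%, 51.6% and 66.8% in cKO and 59.5%, 57.5% and 57.8% in control. A shift in use of these members was thus not detectable at this precision.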

How the data were processed

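Poly(A) RNA of sorted YFP+ iGCBs was sequenced from 3 cKO and 3 control mice. After trimming, the authors used HISAT2 for alignment and StringTie with prepDE for quantification (HISAT2, StringTie and mm10 per the submitters' processing notes), and deposited tables of estimated counts by gene and by RefSeq transcript. Versions, the read length setting and strandedness of the counting were not given in the sources used here. The culture time is 3 days by the titles, while the labels' general protocol gives 4 days. Feeders received 120 Gy. The deposited counts were whole and not normalized.

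Testing used the quasi-likelihood test of edgeR 4.0.16 (R 4.3.3) on genes passing filterByExpr (minimum count 10) after TMM scaling, with no covariates and with Benjamini-Hochberg adjustment over all genes. Genes with an adjusted p under 0.05 were called, and a stricter rule added a change over 1.5-fold. CPM were computed from TMM-scaled totals, except for markers, which used plain totals. With 3 against 3, an exact permutation test cannot go below p = 0.1, so none was run. DESeq2 1.42.0 was an alternative, with other scalings, filters, an Xist covariate, a replicate block and each library left out. Transcript use was tested with diffSpliceDGE on the 34674 of 36026 transcripts matched to genes by a RefSeq table of GRCm38.p6. Gene positions and exon lengths are from GENCODE M21 on GRCm38. The fits were tested on simulated counts.

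Members and gene lists were chosen with earlier results of these data known. All 48 members are named. Those past both limits, and the largest called change of each role, are given by library. From each other list the 2 highest and 2 lowest called genes with a mean of at least 10 CPM are named, and Plk1, Aurkb, Mki67, Aurka, Top2a, Pcna, Mcm2, Cdkn1a and Lin37 were added after their values were seen. Deviations of same-numbered libraries correlated weakly, which does not settle whether these libraries were paired. No library pair of a group agreed within sampling noise (chi-square per degree of freedom 15.9 to 26.7). Some marker genes are not reported here and were left out of the marker sums.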

Additional observations from a re-analysis of the deposited data

How the results depend on the processing

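Across the 14 alternative fits, 8 to 12 members were called higher and 19 to 21 lower, against 11 and 21, and for G2/M members 12 to 14 were lower and 3 higher. No called member changed direction, and the 12 members over 1.5-fold stayed past the adjusted p threshold in every fit. Called G1/S members that rose ranged from 5 to 8 with a library left out, and were 5 without cKO 2 or without control 2. The G1/S median ranged from -0.0137 (without cKO 1) to 0.0201 with a library left out, so its sign is not stable. The G2/M median ranged from -0.457 to -0.31 with a library left out (-0.31 without control 1, -0.457 without control 3) and reached -0.326 once Xist level entered as a covariate. The causes were not tested. Members called lower and over 1.5-fold ranged from 6 to 12. Cdk1, 1 of the 8 in the main fit, was under 1.5-fold with DESeq2 (log2 fold change -0.578) and in several other fits. Calls were lost in at least 1 fit for Ccne2, Cdkn2c, E2f6, Cks2 and Lin54, and Ccnd1 was called higher with the replicate block (log2 fold change 0.363) and with the Xist covariate (0.491), and Cdkn2a lower without cKO 3 (-0.553).

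The Cdkn2c call was also lost with the replicate block. The labels do not say whether same-numbered libraries were paired, while the study used paired t tests for other measurements of control and cKO iGCBs. The correlations of the deviations of same-numbered libraries were 0.00851, 0.0839 and 0.133, and not every library correlated best with its own number. With 3 libraries per group, these values cannot settle whether the libraries were paired. With the replicate block, 6234 genes were called against 6468, with 11 members higher and 21 lower, and transcript use again called 0 members.

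Low genes such as Cdkn2a rest on the fewest reads, and 15 of the 32 called members share exonic bases with another gene. Where the partner is on the other strand, reads cannot be told apart without a stated strand setting. Foxm1 (144 bases with Tex52 and 97 with Gm44596) and Ccnf (8 with Mir5134) have partners on the same strand, which no strand setting separates. RNA levels say nothing of the proteins or of the phase of single cells.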
